A study of Homo sapiens with 4 samples.

Results

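The 10 HOXB genes, HOXB1 to HOXB9 and HOXB13, were taken from 4 lists of ChIP-seq peaks by their gene symbols, and all 10 were matched among the 18576 gene symbols that these lists hold together. Chromatin was precipitated with an antibody to H3K4me3 (ab8580) or to WDR5 (ab56919) in RS4;11 and THP-1 cells, with 1 sample for each combination and no replicate. RS4;11 is a B-cell precursor acute lymphoblastic leukemia line with a KMT2A-AFF1 fusion, and THP-1 is a monocytic acute myeloid leukemia line with a KMT2A-MLLT3 fusion (KMT2A is the gene of MLL). Both were grown in RPMI1640 medium with fetal bovine serum, and the labels name no treatment. For WDR5 in THP-1 and for H3K4me3 in RS4;11 the labels name the opposite type of leukemia, so the samples were grouped by the names of the line and the antibody.

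HOX genes code for homeodomain transcription factors that set positional identity along the body axis. They stand in clusters whose order follows the order of their expression along that axis, and in blood they are high in stem and progenitor cells and fall during differentiation. Trimethylation of lysine 4 on histone H3 marks the starts of active genes. It is laid down by complexes of the SET1 and MLL family, in which WDR5 is a core subunit, and HOX genes are textbook targets of MLL. The comparison asked which HOXB genes carried a listed H3K4me3 or WDR5 peak in each line.

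For H3K4me3, RS4;11 had 24212 distinct peaks and THP-1 had 26523. They give positions and no heights or read counts, so the depth was unknown and the precision of a single peak could not be given. No listed H3K4me3 peak was wider than 4478 bp in RS4;11 or 4446 bp in THP-1 cells, while 465 and 277 peaks were between 4000 bp and those limits. A gene with no listed peak can therefore carry a wider domain that is not in the lists, and each absence below is an absence from the lists. The markers of the lines were checked by the same measure, a peak over the 5′ end of the gene. Of 7 B-cell precursor markers, 3 had such a peak in RS4;11 cells (CD79A, CD79B and CD22) and 2 in THP-1 cells (PAX5 and EBF1). Of 9 myeloid markers, 3 had one for RS4;11 and 4 for THP-1, where ITGAM was the additional gene. PAX5, a defining factor of B cells, and EBF1 thus went against the names of both lines, while CD79A, CD79B and CD22 went with them. In THP-1 cells a peak of 4037 bp covered the PAX5 start and another of 2472 bp the EBF1 start. In RS4;11 cells the nearest listed peaks were 248571 and 56435 bp from these starts, which is again an absence from the list. The markers did not settle which line each H3K4me3 list came from. None of 4 T-cell markers had a peak over the start in either line, EPOR was the only 1 of 3 erythroid markers with one, in RS4;11 cells, and none of 3 epithelial markers had one. The marker counts depended on the start used. At representative (MANE Select) transcript starts, RS4;11 and THP-1 cells had 3 and 3 B-cell, 4 and 5 myeloid and 0 and 1 epithelial markers. At any annotated transcript start they had 3 and 4, 5 and 6, and 0 and 2. The T-cell and erythroid counts stayed the same.

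The cluster lies on chromosome 17 of hg19 (GRCh37), from the 3′ end of HOXB1 to the start of HOXB13, chr17:46605888-46806112, a span of 200.2 kb. All 10 genes are on the minus strand, so HOXB1 is at the low end and HOXB13 at the high end. Within it, 5 listed H3K4me3 peaks were found for RS4;11 and 11 for THP-1, and 3 peaks of each line overlapped a peak of the other by at least 1 bp. The overlapping peaks were 60.0% of the RS4;11 and 27.3% of the THP-1 peaks in the cluster. Over all listed peaks of chromosome 17 the shares were 58.5% and 62.0%. The RS4;11 share was thus near its background and the THP-1 share under it. The cluster peaks covered 4090 bp (2.04%) of the span in RS4;11 and 12164 bp (6.08%) in THP-1 cells. Over chromosome 17 the coverage was 2.99% and 2.71%. Each line had 1 sample, so these contrasts could not be checked in a replicate.

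**Figure D1:**
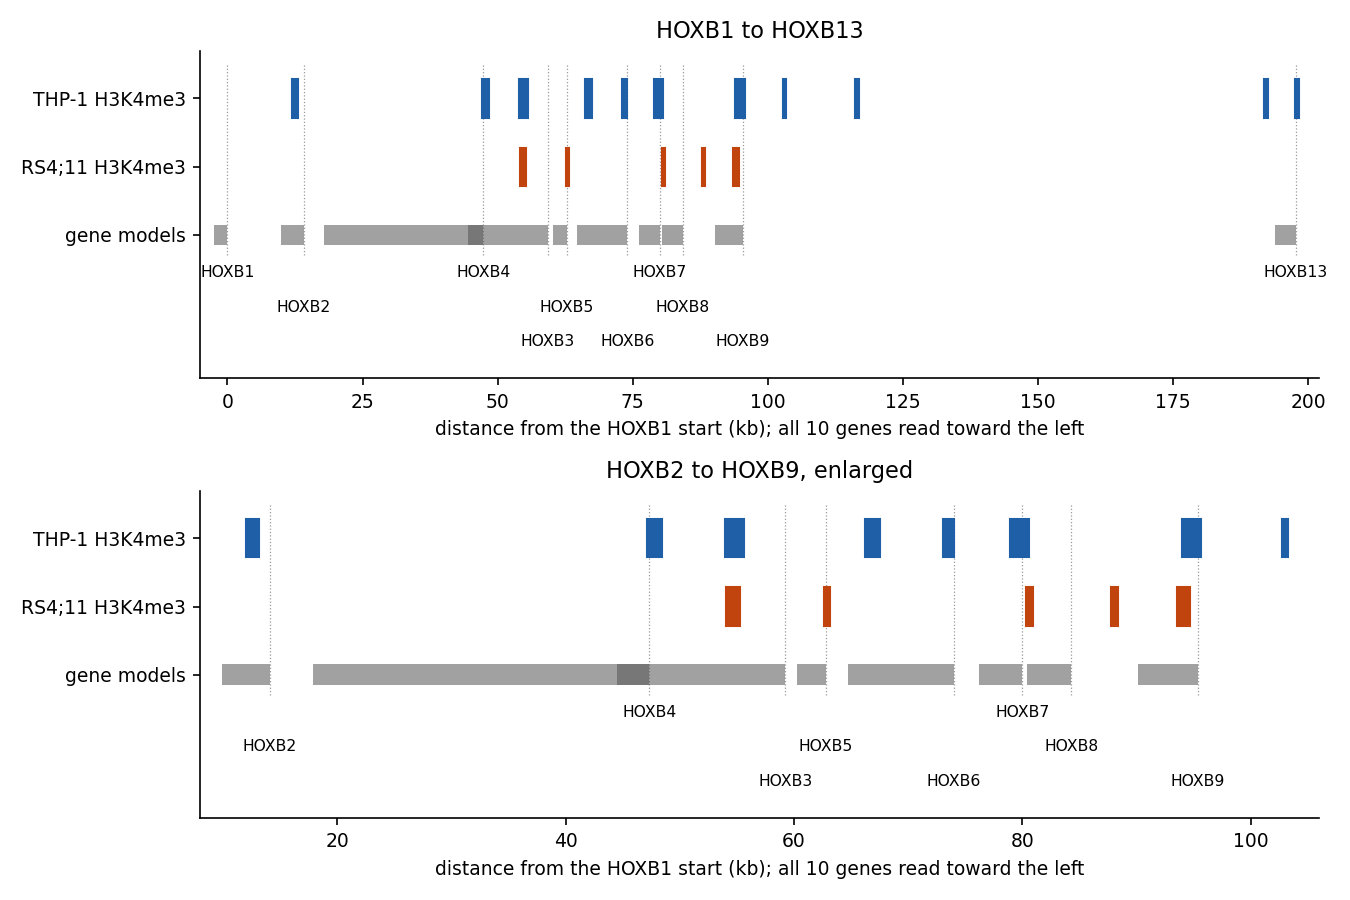
Positions of the listed H3K4me3 peaks over the HOXB cluster, in kb from the HOXB1 start, with THP-1 peaks in blue, RS4;11 peaks in red and gene models in gray from the 3′ end to the representative start (dotted line). The centers of all 5 RS4;11 peaks lay between 54.7 and 94.1 kb, while those of the 11 THP-1 peaks reached from 12.6 to 197.9 kb.

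Sequence shared by the lines is shown first, since it held H3K4me3 in both samples. The shared interval chr17:46702337-46703040 was entirely within the intron of HOXB9. Another shared interval, of 1170 bp, lay between HOXB4 and HOXB5 in an intron of the representative HOXB3 transcript and held no annotated transcript start. The second sequence is from the RS4;11 peak between HOXB8 and HOXB9, which lay 5587 bp from the nearest THP-1 peak and held no annotated start. Each is the central 300 bases on the plus strand of GRCh37, with CpG dinucleotides in capitals.
Shared, in the HOXB9 intron, chr17:46702538-46702837: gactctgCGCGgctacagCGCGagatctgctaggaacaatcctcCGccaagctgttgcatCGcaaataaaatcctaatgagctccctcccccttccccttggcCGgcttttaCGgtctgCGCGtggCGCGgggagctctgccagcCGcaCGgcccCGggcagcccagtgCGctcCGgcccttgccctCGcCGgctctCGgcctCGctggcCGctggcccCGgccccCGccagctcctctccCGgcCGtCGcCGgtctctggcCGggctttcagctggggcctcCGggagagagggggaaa
RS4;11 only, between HOXB8 and HOXB9, chr17:46696307-46696606: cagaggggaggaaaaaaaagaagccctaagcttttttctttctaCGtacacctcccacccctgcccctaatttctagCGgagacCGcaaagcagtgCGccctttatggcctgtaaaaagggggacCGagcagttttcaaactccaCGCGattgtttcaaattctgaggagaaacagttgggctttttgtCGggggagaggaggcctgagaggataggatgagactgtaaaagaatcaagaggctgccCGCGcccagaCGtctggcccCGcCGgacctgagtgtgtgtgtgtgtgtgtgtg
The HOXB9 sequence held 30 CpG in 300 bases at a GC content of 70.0%, and the RS4;11 sequence held 13 at 53.0%. The observed to expected CpG ratio was 0.83 in the HOXB9 stretch and 0.63 in the other.

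The lists name a gene where a peak lies in a transcript of the authors' annotation or within 20 kb of it. That annotation held 1 transcript each for HOXB3 and HOXB7, shorter than the GENCODE models used for positions here, so some peaks in or near the longer models are not listed for those genes. By the lists, 7 of the 10 members were listed in RS4;11 cells (HOXB3 to HOXB9), where 78.4% of all 20163 protein-coding genes had a peak within 20 kb, and all 10 in THP-1 cells, where the share was 83.4%. Neither count stood far from its background. The genes are packed closely, so the 5 RS4;11 peaks named between 4 and 6 members each, and the THP-1 peaks named up to 5. By the authors' exon and intron flags, 2 members were touched in RS4;11 cells (HOXB5 and HOXB9) and 6 in THP-1 cells (HOXB2, HOXB4, HOXB6, HOXB7, HOXB9 and HOXB13). Among all listed gene symbols, 76.9% in RS4;11 and 78.4% in THP-1 cells had such a flag. The flags follow the shorter transcripts, and with GENCODE gene models 5 members held a peak in RS4;11 (HOXB3, HOXB5, HOXB7, HOXB8 and HOXB9) and 8 in THP-1 cells (all but HOXB1 and HOXB5), against 64.5% and 70.0% of protein-coding genes. The flag counts thus depended on the transcript models.

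A stricter measure asks whether a peak covers the 5′ end of the gene model. In RS4;11 cells 1 of 10 members, HOXB5, passed, against 45.7% of protein-coding genes. In THP-1 cells 5 of 10 passed (HOXB3, HOXB4, HOXB6, HOXB9 and HOXB13), against 48.4%. The RS4;11 count was well under its background and the THP-1 count near it. No member had a covered start in both lines, the pattern of 38.2% of protein-coding genes, while 5 members had one in THP-1 only (10.2% of genes), 1 in RS4;11 only (7.42%) and 4 in neither (44.2%). The members are neighbors on 1 chromosome and share peaks, so these 10 genes are not 10 separate observations.

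The gene models of HOXB3, HOXB6 and HOXB7 begin at long transcripts, and the representative (MANE Select) transcript of HOXB3 and HOXB7 begins far inside. With representative starts the counts were again 1 in RS4;11 and 5 in THP-1 cells, against 49.0% and 52.7% of genes, but in THP-1 cells HOXB7 replaced HOXB3. With any annotated transcript start the count was 1 in RS4;11 and 7 in THP-1 cells, against 53.4% and 59.1%. The 7 THP-1 genes were HOXB2, HOXB3, HOXB4, HOXB6, HOXB7, HOXB9 and HOXB13.

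**Figure D2:**
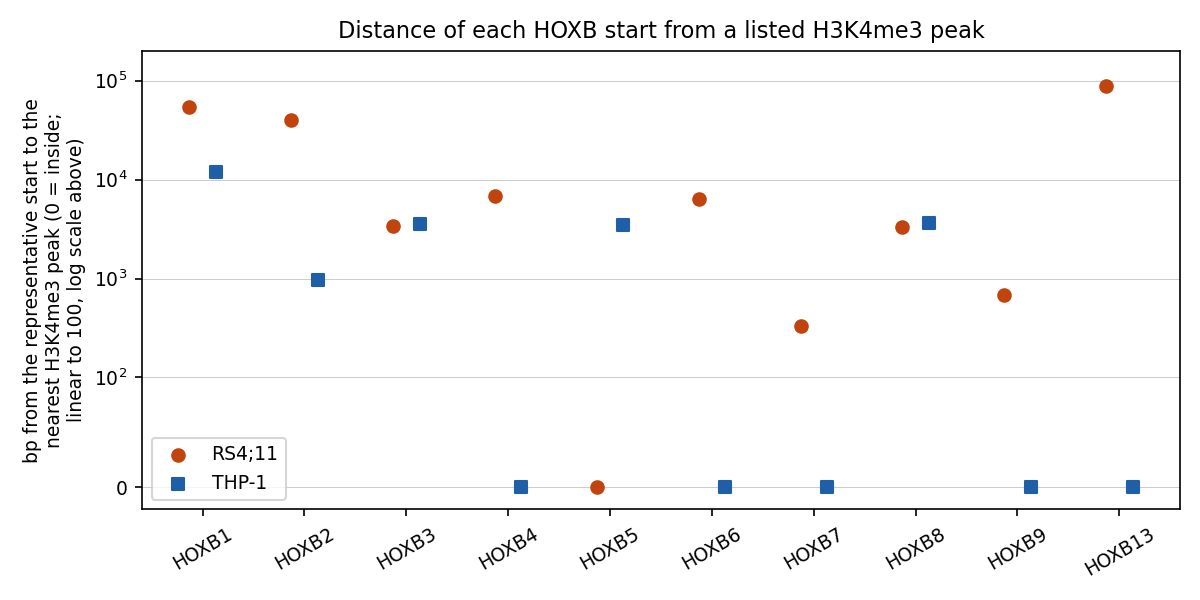
Distance in bp from the representative start of each HOXB gene to the nearest listed H3K4me3 peak, with RS4;11 as red circles and THP-1 as blue squares (0 means inside a peak, linear to 100 bp and on a log scale above). THP-1 had 5 genes at 0 and RS4;11 had HOXB5. The representative starts of HOXB1, HOXB3 and HOXB8 were at least 3307 bp from a peak in both lines.

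The anterior members, HOXB1 to HOXB4, had no peak over a start in RS4;11 cells. HOXB1, which acts in hindbrain patterning, lies at chr17:46605888-46608373. Its start was 54085 bp from the nearest peak in RS4;11 and 11981 bp in THP-1 cells, so it stood apart from the listed mark in both lines. The 250 bases before its start are shown because HOXB1 was the member farthest from a listed peak in THP-1 cells and was not listed in RS4;11 cells, with a match to TGATNNAT, a letter form of the site bound by PBX and HOX proteins together, in capitals. They come from RefSeq (GRCh38.p14) and match GRCh37 exactly and once on the chromosome, at chr17:46608374-46608623 on the minus strand.
HOXB1 upstream: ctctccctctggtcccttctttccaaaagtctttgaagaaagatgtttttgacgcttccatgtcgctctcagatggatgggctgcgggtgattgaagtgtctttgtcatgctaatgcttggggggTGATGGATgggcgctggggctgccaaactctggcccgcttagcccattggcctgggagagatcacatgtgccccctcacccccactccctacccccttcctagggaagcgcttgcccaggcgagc
On both strands TGATNNAT occurred in 6.47% of the first 250 bases of all 35116 RefSeq promoters. No match to it under the cluster peaks overlapped a match to TGACAG, the other string searched (0 of 5 matches).

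HOXB2, a hindbrain regulator at chr17:46618256-46622471, was 39987 bp from the nearest peak in RS4;11 cells, measured from its start. In THP-1 cells a peak of 1158 bp at chr17:46620354-46621511 lay inside the gene, with its edge 960 bp from the start. This peak covered 677 coding bases, 79 untranslated bases and 402 intronic bases of HOXB2. It also held the starts of 2 shorter HOXB2 transcripts and of the antisense transcript HOXB-AS1-203 at position 46620913, and without heights or strand these could not be told apart.

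HOXB3 spans chr17:46626232-46682274 with 13 annotated transcripts. Its representative start at position 46667603 was 3367 bp from a peak in RS4;11 and 3595 bp in THP-1 cells. In THP-1 cells the starts of 2 other HOXB3 transcripts were covered, at positions 46656719 and 46682274, and each of these peaks also held the start of a neighbor, HOXB4 or HOXB6. HOXB4, known for its part in the self-renewal of hematopoietic stem cells, lies at chr17:46652869-46655712. A THP-1 peak of 1374 bp at chr17:46655470-46656843 covered its start, while the nearest RS4;11 peak was 6746 bp away. The lists thus differed at the HOXB4 start, and both held the shared peak upstream of it.

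The central members lie closer together. HOXB5, at chr17:46668619-46671141, was the member with a covered start in RS4;11 cells, by a peak of 561 bp at chr17:46670970-46671530. That peak covered 75 coding and 97 untranslated bases of HOXB5 and reached past its start, and in THP-1 cells the nearest peak was 3437 bp from the start. In THP-1 cells that start lay in a stretch of 10569 bp with no listed peak, which also held the representative HOXB3 start and was longer than the widest listed peak. HOXB6, at chr17:46673113-46682354, carried 2 peaks in THP-1 cells. The first, chr17:46674578-46675892, covered 415 coding and 822 intronic bases, and the second, chr17:46681393-46682386, covered the starts of 3 HOXB6 transcripts. No listed RS4;11 peak lay in HOXB6, and the nearest was 6362 bp from its representative start.

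HOXB7 has its representative start at position 46688379. A THP-1 peak of 1662 bp at chr17:46687332-46688993 covered it, with 400 coding and 549 intronic bases. The RS4;11 peak there, of 638 bp at chr17:46688710-46689347, lay 331 bp upstream of that start, and the peaks of the lines shared 284 bp. The same region was thus marked in both lists with the HOXB7 start inside the peak in THP-1 cells and outside it in RS4;11 cells. HOXB8, at chr17:46688739-46692654, had no covered transcript start in either line, and its representative start was 3307 bp from a peak in RS4;11 and 3661 bp in THP-1 cells. The HOXB8 gene model still held 609 bp of this RS4;11 peak and 255 bp of this THP-1 peak, outside its representative transcript.

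HOXB9, at chr17:46698518-46703720, carried a peak in both lines. In THP-1 cells a peak of 1731 bp at chr17:46702337-46704067 covered its start with 517 coding, 89 untranslated and 778 intronic bases. The RS4;11 peak, of 1137 bp at chr17:46701904-46703040, lay wholly in the intron and ended 680 bp short of the start. The overlap was 704 bp, the intronic interval from which a sequence is printed above. At HOXB7 and HOXB9 the RS4;11 peak was the narrower one and was displaced from the start.

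HOXB13, the posterior member known from the prostate and the distal gut, lies at chr17:46802125-46806112, away from the other genes. It had 2 listed peaks in THP-1 cells and none in RS4;11 cells, where the nearest peak was 87718 bp from its start. A THP-1 peak of 806 bp at chr17:46805875-46806680 covered the HOXB13 start, with 81 coding and 157 untranslated bases. A second, of 637 bp at chr17:46800223-46800859, covered the start of PRAC2 and ended 343 bp from that of PRAC1, small genes named for their expression in prostate and colon. The nearest RS4;11 peak was 93283 bp from the PRAC2 start.

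Between HOXB9 and HOXB13 THP-1 cells had 2 more listed peaks and RS4;11 cells had none. A peak there over 20 kb from every transcript of the authors' annotation would be missing from both lists. A peak of 580 bp at chr17:46711087-46711666 lay 153 bp from the start of the longest HOXB7 transcript and 1166 bp from the hairpin of MIR196A1. The other, of 823 bp at chr17:46724503-46725325, was listed for MIR196A1 and for no member, so 10 THP-1 peaks were found by gene symbol and 11 by position. It held no annotated start and lay 118 bp from that of LINC03057 and 212 bp from that of LINC02086, both named after their values were seen.

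The cluster also codes for 2 microRNA genes, whose mature products are shown because their hairpins lie among the peaks, with the seed (bases 2 to 8) in capitals (RefSeq).
hsa-miR-10a-5p: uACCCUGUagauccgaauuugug
hsa-miR-196a-5p: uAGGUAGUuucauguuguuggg
Their seeds differ, ACCCUGU and AGGUAGU. The miR-10a hairpin, chr17:46657200-46657309 on GRCh37, lay 466 bp from the THP-1 peak over the HOXB4 start and 5149 bp from a peak in RS4;11 cells. The miR-196a-1 hairpin, chr17:46709852-46709921, from which a known regulator of HOXB8 mRNA derives, was 1166 bp from a peak in THP-1 and 6881 bp in RS4;11 cells. Both were nearer a listed peak in THP-1 cells. Among 4 antisense transcripts of the cluster, HOXB-AS1 alone had a covered gene start, in THP-1 cells, and none had one in RS4;11 cells.

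The peaks were of modest width. In RS4;11 cells they were 561, 584, 638, 1137 and 1170 bp wide, with a median of 638 bp against 1391 bp over all H3K4me3 peaks of the line. In THP-1 cells they ranged from 580 to 1731 bp with a median of 1158 bp against 1241 bp. All 5 RS4;11 peaks were narrower than the median of their list, and the widest had 42.7% of the list below it. In THP-1 cells the widest, at HOXB9, had 64.0% below it.

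**Figure D3:**
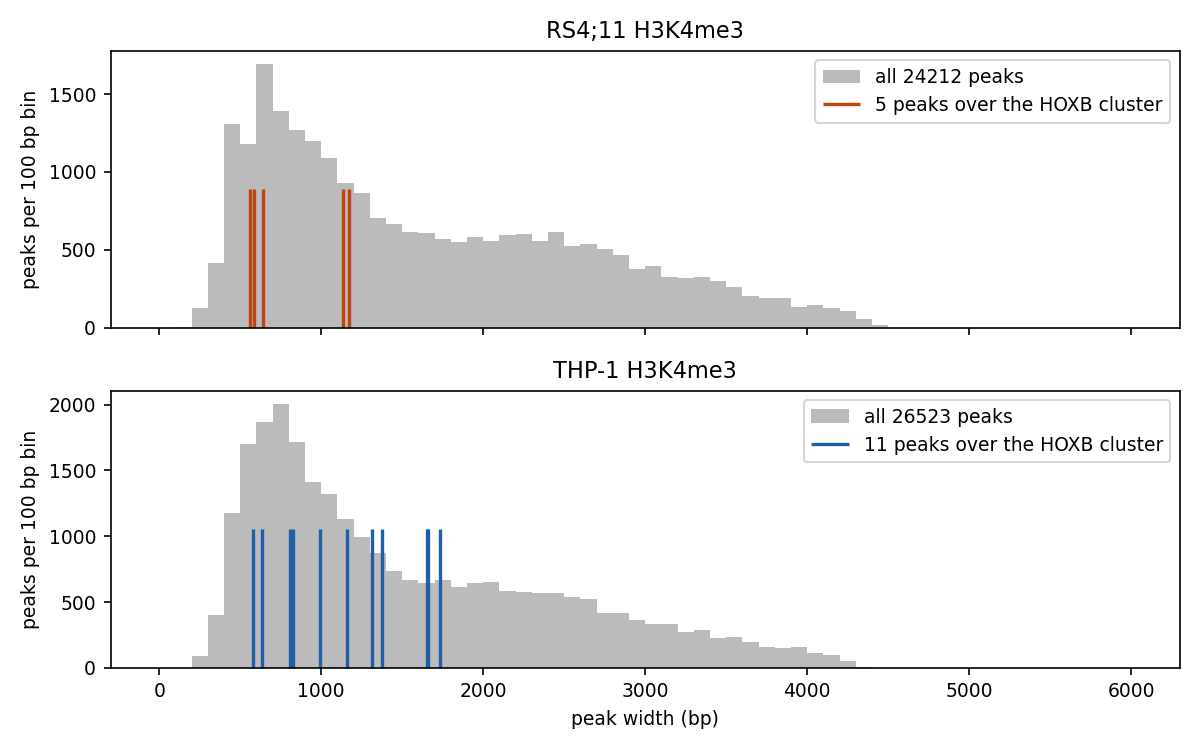
Histograms of the widths in bp of all listed H3K4me3 peaks in bins of 100 bp for RS4;11 (24212 peaks) and THP-1 (26523 peaks), with vertical lines at the peaks over the HOXB cluster. The 5 RS4;11 lines fall between 561 and 1170 bp and the 11 THP-1 lines between 580 and 1731 bp, and both histograms end below 4500 bp.

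The stretches between listed peaks were measured because a wide domain could lie in them. In RS4;11 cells 6 stretches touched the cluster, and each was longer than the widest listed peak of the line. They held the representative starts of 9 members, all but HOXB5. In THP-1 cells 11 stretches were each longer than the widest listed peak, and they held the representative starts of HOXB1, HOXB2, HOXB3, HOXB5 and HOXB8. Whether any of these held a domain too wide to be listed, or a peak over 20 kb from every transcript, cannot be told from these files.

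The sequence under the peaks was described on chromosome 17. In RS4;11 cells the 5 cluster peaks had a median GC content of 56.9% (51.0% to 64.3%) against 53.9% over all 1447 peaks of the chromosome, and in THP-1 cells the 11 had 57.9% (51.3% to 66.7%) against 54.4% over 1394. The median CpG ratio was 0.68 against 0.44 in RS4;11 cells and 0.70 against 0.55 in THP-1 cells. The ratio was above the chromosome median in 5 of 5 RS4;11 and 8 of 11 THP-1 peaks of the cluster, with a range of 0.35 to 0.91 over both lines. The lowest ratio was that of the THP-1 peak at the HOXB6 start and the highest that of the RS4;11 peak at the HOXB5 start.

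TGATNNAT was searched for on both strands. It occurred once in the RS4;11 peak at HOXB5, as TGATGTAT 31 bp from the start, 3 times in the THP-1 peak at HOXB7 and once in the THP-1 peak at HOXB9. The HOXB7 matches were TGATAAAT in the intron, TGATATAT in the untranslated leader and TGATCAAT 129 bp upstream of the start. The other 13 peaks of the cluster held none. In central windows of 300 bases it was found in 6.53% of the RS4;11 and 5.68% of the THP-1 peaks on chromosome 17. TGACAG, the core letters bound by MEIS proteins, was found in 5 THP-1 peaks of the cluster and in no RS4;11 peak of it, against 12.9% and 15.6% of the central windows, which are shorter than most peaks. A match is a string of letters and not a bound site.

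No WDR5 peak was listed for any member in either line (0 of 10 and 0 of 10), where 4.38% of protein-coding genes in RS4;11 and 1.48% in THP-1 cells had one within 20 kb. The lists hold 703 and 225 WDR5 peaks, of which 28 and 5 lie on chromosome 17. The nearest WDR5 peak was 4.48 Mb from the cluster in RS4;11 and 5.14 Mb in THP-1 cells. A count of 0 among 10 genes is near these shares and is not a result about the members.

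The genes beside the cluster served as a comparison of the lines. Of 9 flanking genes, 6 had a peak over the gene start in each line, and they were NFE2L1, CBX1, TTLL6, CALCOCO2, ATP5MC1 and UBE2Z in both. In the 500 kb below the cluster, 3.37% of bases were covered in RS4;11 and 3.06% in THP-1 cells, and in the 500 kb above it 3.79% and 4.03%. The coverage of the lines thus differed less beside the cluster than within it (2.04% and 6.08%). Overlapping peaks made up 7 of 12 and 7 of 9 RS4;11 peaks and 7 of 8 and 7 of 13 THP-1 peaks in the flanks, against 3 of 5 and 3 of 11 in the cluster. This difference between regions was not tested, since each line has 1 sample.

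The other HOX clusters showed different orders of the lines. At HOXA, 2 peaks covered 3.51% of the cluster in RS4;11 and 7 covered 12.15% in THP-1 cells. At HOXC the order was reversed, with 15.36% and 9.51%, and at HOXD the shares were 6.24% and 7.36%. Over its whole span HOXB had the lowest coverage of the 4 clusters in each line, but that span includes the long stretch between HOXB9 and HOXB13. From HOXB1 to HOXB9 alone, 4.18% was covered in RS4;11 cells, above HOXA, and 9.75% in THP-1 cells, above HOXC and HOXD. Covered gene starts numbered 2 of 11 and 4 of 11 at HOXA, 1 of 9 and 3 of 9 at HOXC, and 0 of 9 and 3 of 9 at HOXD in RS4;11 and THP-1 cells. With representative starts HOXC had 3 and 5 and with any annotated start 4 and 5, while HOXA had 2 and 4, then 2 and 5, and HOXD had 0 and 3, then 0 and 5.

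**Figure D4:**
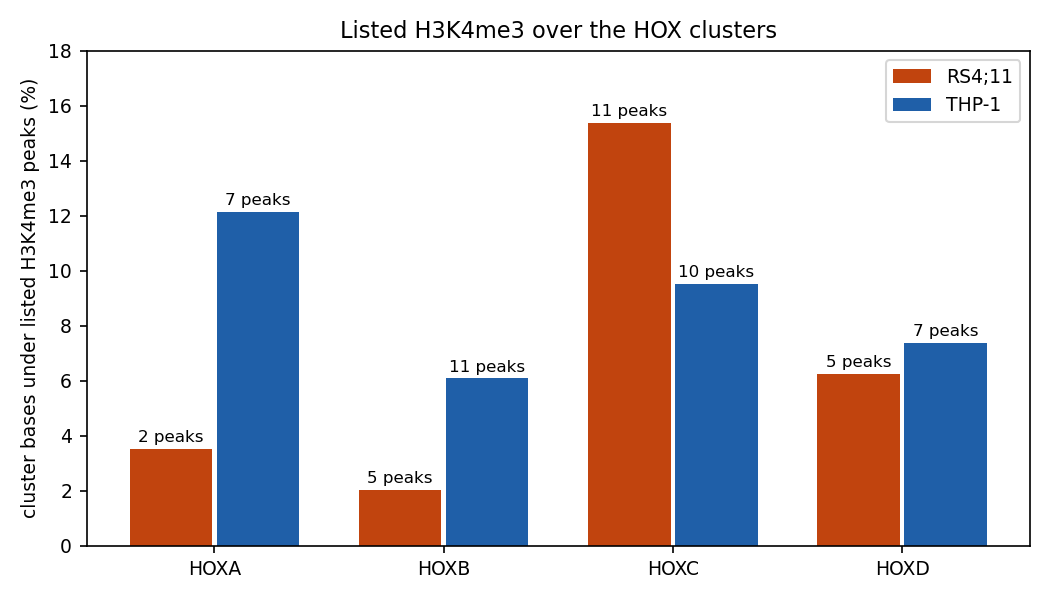
Percent of each HOX cluster under listed H3K4me3 peaks in RS4;11 (red) and THP-1 (blue), 1 sample each, with the number of peaks above each bar. THP-1 was higher at HOXA, HOXB and HOXD, and RS4;11 was higher at HOXC. The HOXB bars are over the whole span to HOXB13.

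The pattern over representative starts was compared within paralog groups, the sets of HOX genes that descend from 1 ancestral gene. HOXB4 and HOXA4 shared a start covered in THP-1 cells alone, as did HOXB7 and HOXA7. The same held for HOXB9 with HOXC9 and HOXD9, and for HOXB13 with HOXC13 and HOXD13. A start covered in neither line was shared by HOXB1 with HOXD1, HOXB2 with HOXA2, HOXB3 with HOXA3 and HOXD3, and HOXB8 with HOXC8 and HOXD8. HOXB5 and HOXB6 had the pattern of neither of their 2 paralogs. Among 9 genes of the cofactors that bind DNA with HOX proteins (MEIS, PBX and PKNOX), 2 had a covered gene start in each line, PBX4 and PKNOX1 in RS4;11 and PBX4 and PKNOX2 in THP-1 cells.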

How the data were processed

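H3K4me3 and WDR5 ChIP-seq peaks of 1 RS4;11 and 1 THP-1 sample each were analysed. The authors sheared chromatin by sonication for WDR5 and by micrococcal nuclease for H3K4me3, aligned reads to hg19 with Eland, called peaks with MACS at default settings and joined them to transcripts within 20 kb. The submitters' processing notes name CASAVA 1.7 and 1.8.2. The MACS version and any input control are not given in the sources used here. The deposited files hold positions and yes or no flags, 1 line per peak and transcript, with no counts, heights or p-values, so depth is unknown and peaks over 20 kb from every transcript are absent. Widths include both end bases.

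Lines were reduced to distinct peaks and compared with GENCODE release 44 mapped to GRCh37 (20163 protein-coding genes) in Python 3.11.15. No test was run, since each group has 1 sample. Interval functions were tested on simulated peaks. The named genes were the 10 members, noncoding and PRAC genes of the cluster, 9 flanking genes, the other HOX clusters, HOX cofactors and markers of cell types. Of these, 1 marker gene is not reported here, nor is 1 sequence under a peak. The members and lists were chosen with earlier results of these data known. Alternatives changed the start, window, span, merging and overlap rules.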

Additional observations from a re-analysis of the deposited data

How the results depend on the processing

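Of 32 alternative values over both lines, 25 stayed within 1.5 times the main one. The 7 of RS4;11 and 10 of THP-1 members listed depended on the window. With exon or intron flags they were 2 and 6, with 2000 bp upstream to 500 bp downstream of the gene start 1 and 6, and with 5000 bp upstream to 1000 bp downstream 3 and 8. Within 2000 bp of the gene start, RS4;11 had 2 members in place of 1. For these windows around the gene start the share of all protein-coding genes is not given. Their counts therefore cannot be set against a background in either line. From HOXB1 to HOXB9 alone, THP-1 had 7 peaks in place of 11, and RS4;11 kept 5. Representative starts and the count of peaks by symbol were added after seeing the data. THP-1 had the higher count of members in every window listed here. From HOXB1 to HOXB9, 9539 bp were covered in THP-1 and 4090 bp in RS4;11 cells. With 20 kb added on each side of the cluster the values were 12732 and 4090 bp. No paired analysis was possible because each group holds 1 sample. Missing wide peaks, missing peaks over 20 kb from every transcript and the unknown depth limit every absence. Neither the types of leukemia in the labels nor the markers settled which line each H3K4me3 list came from. Every contrast of the lines therefore rests on the sample names.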
